A study of Ovis aries with 12 samples.

Results

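The comparison was made between embryos of Hulunbuir Short-tail Sheep and embryos of Ujumqin sheep, both at day 25, with 3 libraries of each breed, across all genes measured in them. A gene entered when its deposited FPKM (fragments counted on a gene, relative to its length and to the size of the library) was at least 1 in at least 3 of these 6 libraries, which 13682 of the 26247 genes of the table did. The rule did not use the difference between the breeds, but 376 genes passed only through the Hulunbuir libraries and 55 only through the Ujumqin libraries, and these had to differ to pass. Of the 376, 297 were called higher, and of the 55, 53 were called lower. Genes named below that passed only through Hulunbuir include HNF4A, FOXA3, CPS1, GCG, PAX7, FLT4, CSF1R, SALL4, FXYD4, TRIM58 and SLC22A7. So did ENSOARG00000000407, a cationic amino acid transporter 3-like gene, and ENSOARG00000011108, a UDP-glucuronosyltransferase 3A1-like gene. CXCL8, C-C motif chemokine 4 (ENSOARG00000004253) and at least the small nucleolar RNA entries ENSOARG00000021229 and ENSOARG00000022008 passed only through Ujumqin. The calls of such genes are partly set by the filter. Just inside the threshold lay NTN4, with a third-highest FPKM of 1.00008, and just outside it lay SLC35G1 and BCL2L15, with 0.999995 and 0.999394.

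The series holds whole-transcriptome RNA-seq of 12 bulk samples, 3 of each breed at day 16 and at day 25. Hulunbuir Short-tail Sheep, called Hulunbuir here, are labelled as the experimental group, and Ujumqin sheep as the control. The labels name no engineered allele and no treatment in either group. All embryos were taken apart into cell suspensions with enzymes before total RNA was isolated, and the labels do not say which library came from which animal, so that every p-value here measures how far these libraries spread, in part perhaps technically. In bulk RNA, fewer cells of a type and less RNA per cell cannot be told apart.

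At this age a sheep embryo has closed most of its neural tube, has somites, limb buds and a beating heart, and carries a yolk sac and a liver bud. Its first red cells are large nucleated cells filled with embryonic globins, which arise in the yolk sac and then circulate. The liver bud and the yolk sac endoderm secrete the fetal plasma proteins, while the loose mesenchyme between the organs lays down collagen and other matrix. Axis growth at the tail bud, where Wnt, FGF and retinoic acid signals and the HOX genes act, sets the number of tail segments.

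The deposited counts summed to 30464606 to 33171681 per Ujumqin library and 32625184 to 39643588 per Hulunbuir library, and 16936 to 17692 genes had a count. Markers of an organised embryo were present in all 6 libraries, among them AFP of the yolk sac and liver, MYL4 of the heart, SOX2 of the neural tube and MYOG of muscle. The 3 Hulunbuir libraries lay close together (biological coefficient of variation 12.3%, against 21.2% in Ujumqin). Ujumqin library 1 stood apart from the other two Ujumqin libraries on the second principal component, at 32.2 against -12.0 and -13.5. It had the highest collagen and the lowest epithelial transcript levels of the 6, and counts of the main gene groups below are therefore also given without it. A log2 change below is Hulunbuir minus Ujumqin, ± its standard error, from edgeR's quasi-likelihood test on the counts with TMM scaling, and a gene was called at a Benjamini-Hochberg adjusted p at or under 0.05. FPKM, which are per library total, set the median gene 0.35 higher in Hulunbuir on the log2 scale, against 0.03 after TMM. FPKM ratios therefore run above the log2 changes printed beside them.

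Of the 13682 genes tested, 6728 were called (49.2%), 3402 higher (24.9%) and 3326 lower (24.3%) in Hulunbuir. At least 2-fold changes were called for 1073 genes higher (7.84%) and 728 lower (5.32%), and for 8798 genes (64.3%) the FPKM of the 3 and 3 libraries did not overlap. These shares are the background for the counts of gene groups that follow. Scaled by library totals alone, 5986 genes were called higher and 1498 lower, so that 80.0% of calls were higher against 50.6% with TMM. Of the 6728 genes called with TMM, 4900 were also called on library totals, and 351 had the other sign there. No gene was called in opposite directions by both scalings (0 genes). The scalings differ by a similar shift in all genes, so that opposite calls could hardly arise. Without Ujumqin library 1, 8065 genes were called, 4145 higher and 3920 lower. With the day 16 libraries in the same fit, whose spread is larger, 2440 of 14595 genes were called.

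**Figure D1:**
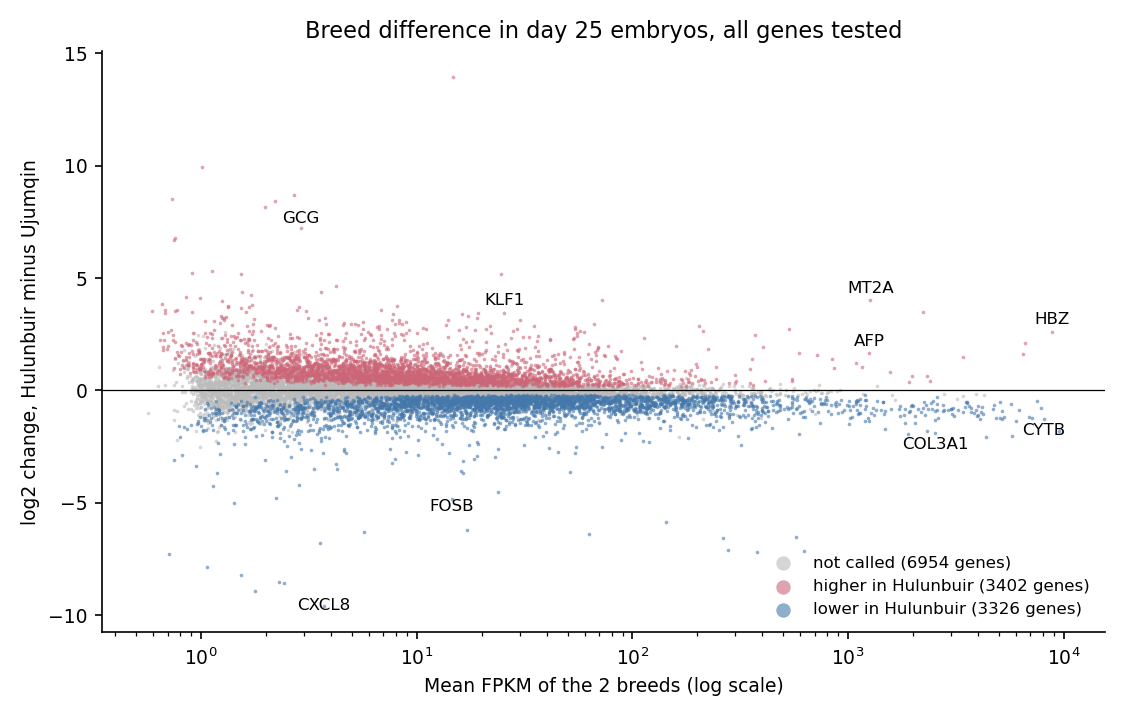
Log2 change between the breeds (Hulunbuir minus Ujumqin, TMM scaling) against the mean FPKM of both breeds (log scale) for the 13682 genes tested, each point 1 gene, red where called higher and blue where called lower in Hulunbuir. Globin and plasma protein genes lie at the top right and FOSB and CXCL8 among the lowest points; at the highest levels more genes were called lower than higher.

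Direction differed with level and, not in 1 order, with transcript length. In the eighth of genes with the highest FPKM, 55.7% were called lower and 11.2% higher, with a median log2 change of -0.33, while in the lowest eighth the median was 0.24. In the eighth with the shortest transcripts the median was -0.37 and 35.4% were called lower, the middle eighths had medians up to 0.14, and in the longest eighth the median was -0.03, with 30.4% lower and 27.8% higher. With a per-library correction for length, 3158 genes were called higher and 3527 lower.

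**Figure D2:**
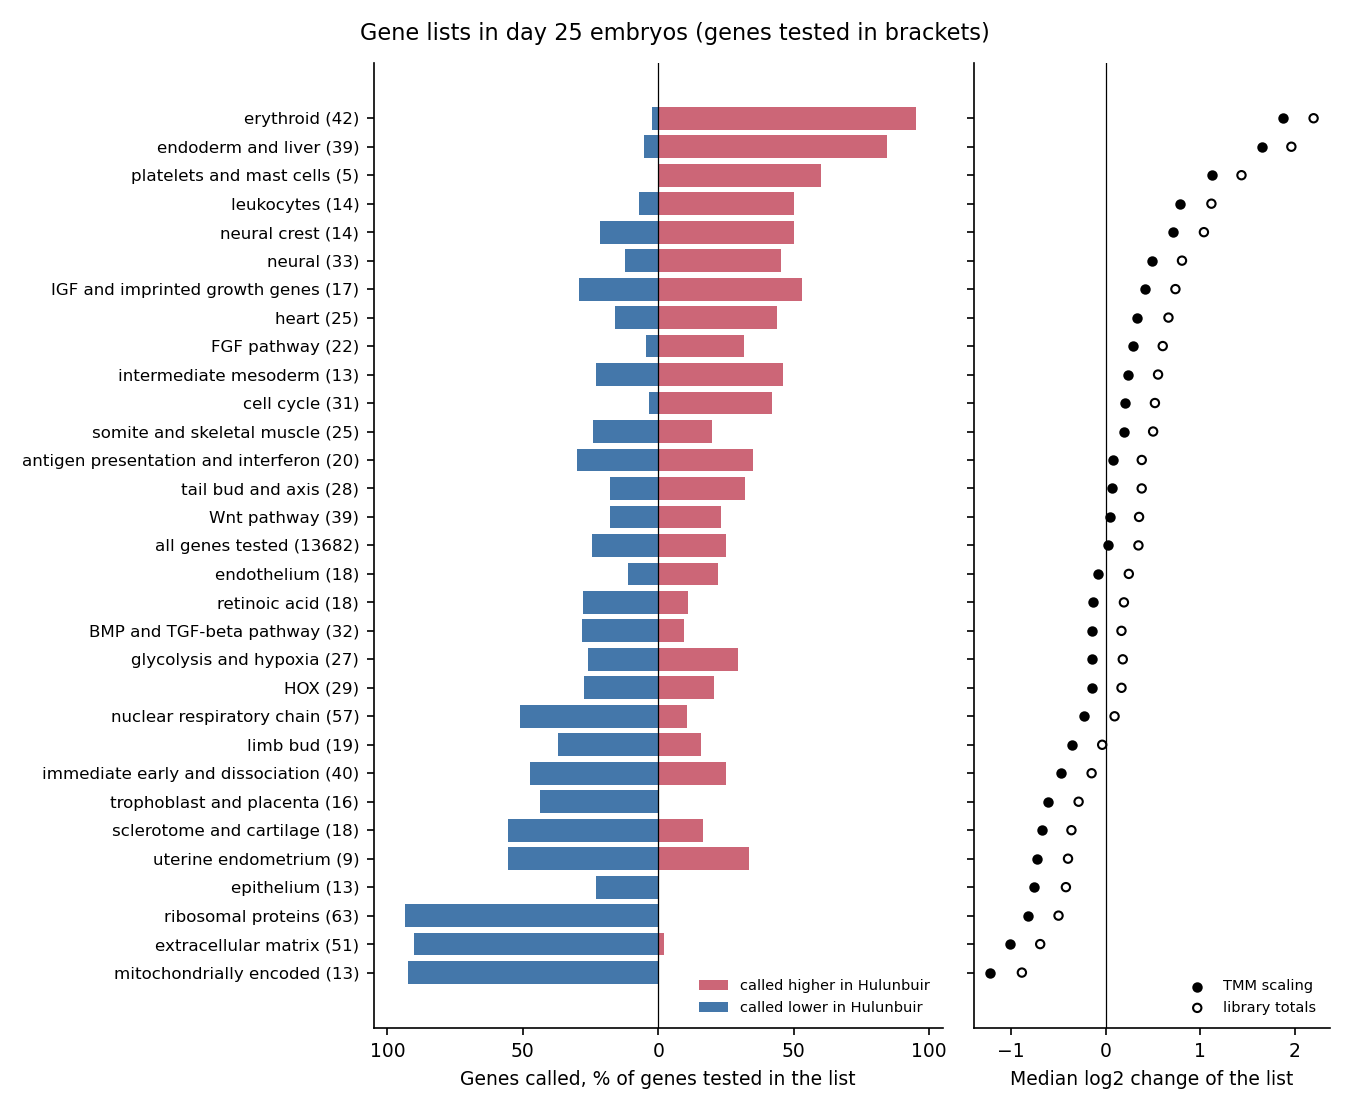
Left: genes called higher (red) and lower (blue) in Hulunbuir, as a percentage of the genes tested in each list (number tested in brackets). Right: the median log2 change of the tested members with TMM scaling (filled) and with library totals (open). Erythroid and endoderm genes lie at the top (medians 1.88 and 1.65), mitochondrially encoded, matrix and ribosomal protein genes at the bottom (-1.22, -1.01 and -0.82), and all genes tested at 0.03.

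Red cell genes were higher in Hulunbuir from the transcription factors down to the globins. Of 42 erythroid genes tested, 40 were called higher, 38 of them at least 2-fold, and 1 lower, with a median log2 change of 1.88 against 0.03 over all genes. The counts were the same without Ujumqin library 1, and 34 were called higher and 0 lower in the fit of 12 libraries. Summed over the list, the FPKM was 2537 to 3053 in Ujumqin against 18539 to 21441 in Hulunbuir.

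Among the globins, HBZ, the embryonic alpha-type chain (ENSOARG00000010888; chromosome 24, 133194 to 134250, plus strand of Oar_v3.1), had 1724, 2233 and 2128 FPKM in Ujumqin libraries 1, 2 and 3 and 14622, 17458 and 14928 in Hulunbuir libraries 1, 2 and 3, the order used throughout, with Ujumqin first. The 2 sets were far apart, and the log2 change was 2.62 ± 0.15 (edgeR adjusted p = 1.03e-05). The adult-type alpha chain of the same cluster (ENSOARG00000010944, described as hemoglobin subunit alpha-1/2; chromosome 24, 154448 to 155145, plus strand) rose from 2003, 2150.2 and 2094 to 10736, 11594 and 11305 FPKM, a log2 change of 2.101 ± 0.09. HBM, the mu chain, was the globin with the widest spread, at 31.3, 33.9 and 42.1 FPKM in Ujumqin and 202, 135 and 51.8 in Hulunbuir, where library 3 lay nearest to Ujumqin (log2 change 1.52 ± 0.403, edgeR adjusted p = 0.0136). Of the beta-type genes, listed by description and not by symbol, the fetal beta chain (ENSOARG00000019174; chromosome 15, 47609516 to 47611599, plus strand) had 378, 269 and 268 FPKM in Ujumqin and 1100.2, 1167 and 1127 in Hulunbuir (log2 change 1.57 ± 0.11), and the epsilon-2 chain (ENSOARG00000019130) had 6.22, 6.91 and 0.907 against 27.8, 28.1 and 28.1 (log2 change 2.27 ± 0.53). The entry described as hemoglobin subunit beta (ENSOARG00000019163) was near 1 FPKM in both breeds and not called (log2 change 0.82 ± 0.53, edgeR adjusted p = 0.23). Embryonic and fetal chains and the alpha-1/2 chain were thus higher, while the entry described as the beta chain was too low to show a difference. Globin genes are near-identical copies of each other, and how the authors' counting divided reads among them is not given in the sources used here. AHSP, the chaperone that holds free alpha chains, had 121, 116 and 100.5 FPKM in Ujumqin and 905, 1020.3 and 927 in Hulunbuir (log2 change 2.76 ± 0.09, edgeR adjusted p = 8.34e-07).

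All 8 enzymes that build heme were called higher, from the first step of the pathway to the last. ALAD, which condenses the first intermediates into a pyrrole, had 35.02, 33.7 and 33.4 FPKM in Ujumqin and 137, 152 and 142 in Hulunbuir (log2 change 1.75 ± 0.08). The mitochondrial enzyme CPOX had 12.97, 10.7 and 9.68 against 52.3, 51.1 and 53.9 FPKM (log2 change 1.91 ± 0.098), and FECH, which puts the iron into the ring, 12.4, 9.72 and 6.52 against 61.5, 64.1 and 64.6 (log2 change 2.41 ± 0.18). In each of these 3 genes the breeds did not overlap, and FECH varied most among the Ujumqin libraries. The smallest change of the 8 was that of PPOX, at 0.705 ± 0.07. SLC25A37, which carries iron into mitochondria, rose by 1.71 ± 0.09, and TFRC, the transferrin receptor that brings iron into the cell, by 1.42 ± 0.12. All 9 tested genes of maturation and iron handling were called higher, among them BLVRB, which reduces biliverdin, and CA2, a carbonic anhydrase, with log2 changes of 1.84 ± 0.11 and 1.77 ± 0.11.

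Of 9 erythroid and blood stem cell transcription factors, 8 were called higher. GATA1, which switches on most red cell genes, had 16.2, 12.4 and 13.6 FPKM in Ujumqin and 107, 111 and 98.9 in Hulunbuir (log2 change 2.58 ± 0.096, edgeR adjusted p = 1.10e-06). NFE2, which acts on the globin control region, had 11.9, 16.8 and 15.2 against 88.8, 98.2 and 90.8 FPKM (log2 change 2.33 ± 0.15), and LYL1 had 2.72, 1.47 and 1.57 against 12.9, 11.4 and 10.97 (log2 change 2.29 ± 0.24). BCL11A, a repressor of embryonic and fetal globin genes, was the exception: its FPKM overlapped between the breeds, at 18.4, 15.8 and 17.3 against 16.4, 16.8 and 17.1, and the log2 change after TMM was -0.36 ± 0.08 (edgeR adjusted p = 0.005496), but -0.04 on library totals, where it was not called.

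Of 12 membrane and skeleton genes, 11 were called higher and GYPC was not. DMTN and SPTB, which brace the red cell membrane, were the 2 red cell genes with the smallest p (edgeR adjusted p = 8.18e-07 in each). DMTN had 8.49, 7.94 and 8.095 FPKM in Ujumqin and 53.7, 53.5 and 53.98 in Hulunbuir (log2 change 2.39 ± 0.08), and SPTB 7.17, 5.74 and 5.73 against 53.2, 51.2 and 51.7 (log2 change 2.74 ± 0.08). RHAG, the Rh-associated glycoprotein, rose from 3.93, 3.57 and 2.79 to 29.8, 25.1 and 28.5 FPKM, and SLC4A1, the band 3 anion exchanger, from 14.8, 10.2 and 10.3 to 99.6, 93.03 and 96.8. An RH-like gene without a symbol (ENSOARG00000006150, picked after its values were seen) moved the same way, with 5.86, 4.67 and 3.08 against 37.8, 36.5 and 38.2 FPKM.

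**Figure D3:**
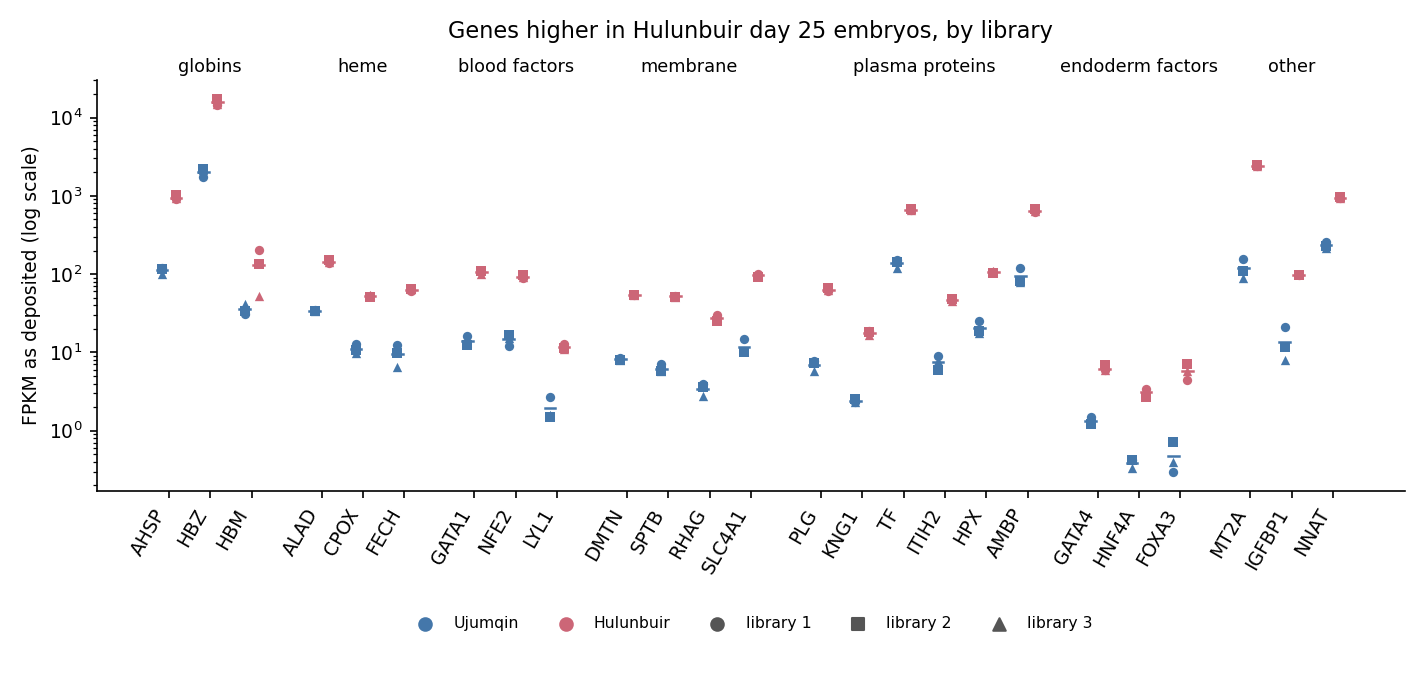
Deposited FPKM (log scale) of erythroid, plasma protein, endoderm factor and other genes in each day 25 library, Ujumqin in blue and Hulunbuir in red, with 1 marker shape per library number and a bar at the mean of 3. In all genes drawn the 3 Hulunbuir values lie above the 3 Ujumqin values; HBM shows the widest spread among the Hulunbuir libraries.

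Other blood cells were measured beside the red cells. Of 14 leukocyte genes tested, 7 were called higher and 1 lower, with a median of 0.79, and their summed FPKM was 95.1 to 110.9 in Ujumqin against 142.6 to 147.1 in Hulunbuir. In the fit of 12 libraries 0 were called higher and 1 lower. The 3 chains of complement C1q, which macrophages make, moved together: C1QC had 4.08, 6.23 and 5.299 FPKM in Ujumqin and 14.98, 16.8 and 15.4 in Hulunbuir (log2 change 1.26 ± 0.202), and C1QB 4.25, 8.93 and 8.86 against 26.1, 26.7 and 22.3 (log2 change 1.42 ± 0.28). CSF1R, the macrophage growth factor receptor, rose from 0.592, 0.546 and 0.948 to 3.22, 2.89 and 2.798 FPKM. CD68, a lysosomal protein used as a macrophage marker, went the other way, with 31.8, 28.97 and 34.5 FPKM in Ujumqin and 17.4, 15.7 and 19.5 in Hulunbuir (log2 change -1.18 ± 0.12, edgeR adjusted p = 0.000132). PTPRC, present on all leukocytes, was near 0 in all 6 libraries, at 0, 0 and 0.0859 against 0.173, 0.267 and 0.164 FPKM. Of 5 platelet and mast cell genes 3 were called higher and 0 lower, TREML1 of platelets with 3.78, 3.24 and 2.49 against 13.4, 15.95 and 16.96 FPKM (log2 change 1.96 ± 0.19) and GP1BA, the platelet receptor for von Willebrand factor, with 1.01, 0.462 and 0.726 against 3.38, 2.83 and 3.13. All blood lineages listed thus had more genes higher than lower, and their part in the red cell difference was not tested.

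Most endothelial genes were not called: 4 of 18 were higher and 2 lower, with a median of -0.08 after TMM and 0.24 on library totals. The VEGF receptors differed among themselves. FLT1, a decoy receptor, had 2.93, 2.15 and 2.6996 FPKM in Ujumqin and 1.197, 1.25 and 1.31 in Hulunbuir (log2 change -1.37 ± 0.16, edgeR adjusted p = 0.000262), whereas FLT4 rose from 0.475, 0.409 and 0.499 to 1.99, 1.66 and 1.52 (log2 change 1.57 ± 0.21) and KDR from 7.07, 4.99 and 4.37 to 10.4, 9.86 and 10.4 (log2 change 0.58 ± 0.14). PLVAP and EGFL7, the most abundant members that were not called, had log2 changes of -0.18 ± 0.104 and -0.18 ± 0.098.

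Plasma proteins and endoderm factors were higher in Hulunbuir as well. Of 39 endoderm and liver genes tested, 33 were called higher and 2 lower (also 33 and 2 without Ujumqin library 1), with a median of 1.65, and in the fit of 12 libraries 17 of them were called higher and 1 lower. The summed FPKM was 7081 to 10715 in Ujumqin against 21061 to 22718 in Hulunbuir. Of 31 plasma protein genes 28 were higher. PLG, the precursor of the clot-dissolving enzyme plasmin (ENSOARG00000004726; chromosome 8, 83234080 to 83281935, minus strand), had 7.73, 7.28 and 5.74 FPKM in Ujumqin and 60.7, 65.998 and 62.8 in Hulunbuir (log2 change 2.87 ± 0.11, edgeR adjusted p = 1.10e-06). KNG1, which releases bradykinin, had 2.31, 2.51 and 2.31 against 18.5, 18.3 and 16.5 FPKM (log2 change 2.57 ± 0.12). TF, the iron carrier transferrin, had 152, 142 and 118 against 663, 677 and 659 (log2 change 1.96 ± 0.09), and HPX, which binds free heme, 25.05, 18.8 and 17.4 against 104.9, 102.6 and 109 (log2 change 2.05 ± 0.11). Both iron and heme carriers of the plasma moved in the direction of the heme enzymes, as did most of the plasma protein genes listed. ITIH2, which binds hyaluronan, and AMBP, the precursor of the inhibitor bikunin that it is joined to, rose by 2.32 ± 0.12 and 2.47 ± 0.14. APOB, the main protein of lipoprotein particles, rose by 1.23 ± 0.07, with 6.39, 6.33 and 6.44 against 18.8, 18.2 and 19.4 FPKM.

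The exceptions were also abundant. RBP4, the retinol carrier, was lower, with 1732, 1200.5 and 1203 FPKM in Ujumqin and 814, 858 and 836 in Hulunbuir (log2 change -1.04 ± 0.12, edgeR adjusted p = 0.000264). APOA1, the main protein of high-density lipoprotein, had 797, 837 and 808 against 989.6, 1139 and 962 FPKM and a log2 change of 0.01 ± 0.097 (edgeR adjusted p = 0.919). Of 8 endoderm transcription factors 5 were higher and 1 lower. GATA4 had 1.48, 1.202 and 1.304 against 5.897, 6.83 and 5.91 FPKM (log2 change 1.898 ± 0.13), and HNF4A, a master factor of hepatocytes, 0.419, 0.423 and 0.329 against 3.41, 2.73 and 3.16 (log2 change 2.65 ± 0.201). FOXA2 and SOX17, which act earlier in endoderm, were not called, at 0.57 ± 0.26 and -0.17 ± 0.296. Several liver genes outside this list were among the 12 largest rises of called genes that have a symbol, average 5 FPKM or more in the higher breed and do not overlap: CPS1, the entry enzyme of the urea cycle, went from 0.327, 0.1904 and 0.457 to 5.26, 5.25 and 5.48 FPKM (log2 change 3.695 ± 0.26), GJB1, the liver gap junction protein, from 3.13, 1.83 and 1.802 to 27.9, 31.9 and 30.8 (3.42 ± 0.198), CPB2, which slows clot breakdown, by 3.41 ± 0.25, and APOC4 by 5.199 ± 0.66. L-gulonolactone oxidase (ENSOARG00000009639, picked after its values were seen), the last enzyme of vitamin C synthesis in ruminant liver, had 2.86, 2.47 and 2.31 against 33.5, 29.5 and 32.9 FPKM.

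Collagen and other matrix genes were lower in Hulunbuir. Of 51 matrix genes tested, 46 were called lower, 27 of them at least 2-fold, and 1 higher, with a median of -1.01. Without Ujumqin library 1, 45 were lower and 1 higher, on library totals 35 were lower and 2 higher, and in the fit of 12 libraries 21 were lower and 0 higher. The summed FPKM of the list was 14482 to 24383 in Ujumqin, where library 1 was highest, against 7811 to 7929 in Hulunbuir. The same library had the lowest epithelial sum of the 6, given below, and the part of tissue make-up in the matrix difference was not tested.

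Of 13 collagen genes 12 were lower. COL12A1, a collagen on the surface of fibrils (ENSOARG00000006410; chromosome 8, 1763844 to 1881188, minus strand), had 40.5, 29.7 and 31.3 FPKM in Ujumqin and 13.97, 12.95 and 13.6 in Hulunbuir (log2 change -1.65 ± 0.098, edgeR adjusted p = 1.28e-05). COL3A1, a fibril collagen of soft tissue, had 5334, 3138 and 3001 against 1272, 1241 and 1273 FPKM (log2 change -1.91 ± 0.18), so that Ujumqin library 1 lay well above the other two while all 3 lay above Hulunbuir. It alone made up 1.96% to 3.45% of all counts in Ujumqin and 0.804% to 0.824% in Hulunbuir. COL4A2 of basement membranes was not called, at -0.28 ± 0.21.

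Of 22 glycoproteins and proteoglycans 20 were lower. DCN (decorin), which coats collagen fibrils, had 1164, 753 and 759.7 against 295, 277 and 289.7 FPKM (log2 change -1.95 ± 0.14). CCN1, a matrix protein that cells make quickly after growth signals, had 264, 162 and 143 against 49.4, 47.1 and 48.97 (log2 change -2.28 ± 0.18), and FN1 (fibronectin) 159.8, 135 and 128 against 89.6, 83.7 and 88.9 (log2 change -1.01 ± 0.08). The processing enzymes followed, with 14 of 16 lower: P4HA1, which hydroxylates collagen, had 46.6, 37.7 and 39.4 against 23.4, 23.9 and 21.9 FPKM (log2 change -1.16 ± 0.08), SERPINH1, the collagen chaperone, 1215, 1063 and 1037 against 668, 702 and 689.6 (log2 change -1.01 ± 0.08), and LOXL2, a crosslinking enzyme, 113, 94.4 and 89.1 against 61.6, 59.02 and 61.3 (log2 change -1.03 ± 0.08). MMP2, which digests collagen fragments, was the 1 member called higher, with 97.6, 75.9 and 73.7 against 129, 131 and 132 FPKM (log2 change 0.35 ± 0.09, edgeR adjusted p = 0.0124). MMP14, its activator, and THBS1, a matrix glycoprotein, were not called, at 0.06 ± 0.08 and -0.59 ± 0.302.

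Immediate early genes, which cells switch on within minutes of growth signals, injury or dissociation, split by kind. Of 40 tested, 19 were called lower and 10 higher, with a median of -0.47. Without Ujumqin library 1, 23 were lower and 10 higher, and in the fit of 12 libraries 10 were lower and 1 higher. Of 19 AP-1 and zinc finger factors 12 were lower and 4 higher. FOS, the core AP-1 subunit (ENSOARG00000001783; chromosome 7, 83397872 to 83400138, plus strand), had 67.97, 65.6 and 68.2 FPKM in Ujumqin and 13.9, 15.5 and 13.99 in Hulunbuir, with little spread within either breed (log2 change -2.54 ± 0.09, edgeR adjusted p = 8.34e-07). FOSB had 50.3, 18.6 and 14.7 against 1.29, 0.972 and 1.24 FPKM, with Ujumqin library 1 highest (log2 change -4.85 ± 0.47). ATF3, a stress-induced factor, had 41.1, 29.9 and 27.1 against 5.03, 5.502 and 5.41 (log2 change -2.94 ± 0.14), and ZFP36, which destroys cytokine mRNAs, 35.6, 29.7 and 26.04 against 7.14, 9.11 and 6.89 (log2 change -2.299 ± 0.14). EGR1 and JUN fell by less, to log2 changes of -1.38 ± 0.11 and -1.001 ± 0.097.

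The 4 members of this class that were higher were MYC, SRF, NR4A1 and NR4A2 (NR4A1 lost the call with 1 library left out, at edgeR adjusted p = 0.0568). MYC, a growth regulator, had 23.6, 15.3 and 18.1 against 45.5, 49.8 and 49.2 FPKM (log2 change 1.023 ± 0.13), and SRF, which itself drives FOS and EGR1, 10.8, 9.102 and 7.66 against 16.7, 16.5 and 18.4 (log2 change 0.58 ± 0.13). Signal feedback and stress genes showed no common direction, with 7 of 21 lower and 6 higher after TMM but 3 lower and 9 higher on library totals. HSPA1A, an inducible heat shock protein, was higher, with 101, 89.7 and 89.1 against 224, 218 and 216 FPKM (log2 change 0.91 ± 0.07), while DUSP1, which shuts off MAP kinases, was lower (-0.85 ± 0.096).

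FOSB, ATF3, KLF4 and IER3 were among the 12 largest falls of called genes that have a symbol, average 5 FPKM or more in the higher breed and do not overlap. Others of these 12 follow. F3, tissue factor, which starts clotting, had 31.6, 20.02 and 20.4 FPKM in Ujumqin and 3.45, 3.65 and 5.897 in Hulunbuir (log2 change -2.78 ± 0.25), and TNFRSF12A, the receptor of the cytokine TWEAK, 29.1, 33.6 and 33.4 against 4.31, 5.79 and 4.33 (log2 change -3.06 ± 0.199). CXCL8, the neutrophil attractant interleukin 8, had 10.6, 4.201 and 7.33 FPKM in Ujumqin (44 to 117 counts) and 0 counts in all 3 Hulunbuir libraries, at least 27.3-fold lower against a floor of 3 counts per library. BHLHE40, a repressor tied to the clock and to low oxygen, had 49.6, 20.6 and 17.2 against 2.87, 3.23 and 2.98 FPKM (log2 change -3.56 ± 0.36), CSRNP1 fell to -3.03 ± 0.301 and VGLL3 to -2.71 ± 0.29. In 9 of these 12 falls, FOSB, ATF3, KLF4, IER3, CXCL8, BHLHE40, CSRNP1, F3 and VGLL3, Ujumqin library 1 was the highest of the 6, and all 9 were also called without it (edgeR adjusted p from 1.22e-07 for ATF3 to 0.0001602 for CXCL8).

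**Figure D4:**
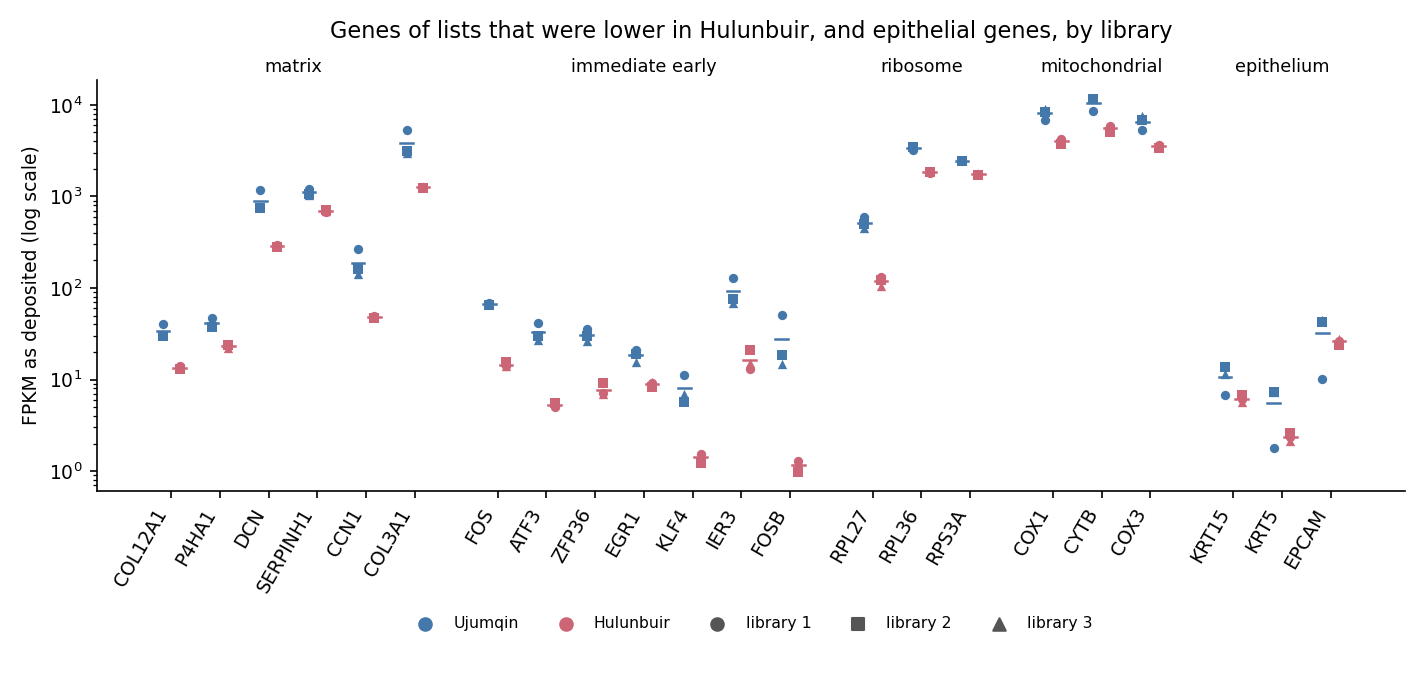
Deposited FPKM (log scale) of matrix, immediate early, ribosomal protein, mitochondrially encoded and epithelial genes in each day 25 library, Ujumqin in blue and Hulunbuir in red, with 1 marker shape per library number and a bar at the mean of 3. Ujumqin library 1 (blue circle) is highest among the matrix genes drawn and lowest of the Ujumqin libraries among the epithelial genes, where the breeds overlap.

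Ribosomal protein genes were lower across both subunits. Of 63 tested, 59 were called lower and 0 higher, 33 of 35 in the large and 26 of 28 in the small subunit, with a median of -0.82. Without Ujumqin library 1, 62 were lower. On library totals 47 were lower with a median of -0.50. Their share of all counts was 12.8% to 16.2% in Ujumqin and 10.7% to 11.3% in Hulunbuir. RPL27 stood out with 603, 498 and 453 FPKM in Ujumqin and 133, 123 and 105.2 in Hulunbuir (log2 change -2.42 ± 0.11, edgeR adjusted p = 3.78e-06). RPL36 had 3178, 3449 and 3577 against 1817, 1842 and 1889 FPKM (log2 change -1.21 ± 0.09), and RPS3A 2447, 2428 and 2504 against 1746, 1721 and 1771 (log2 change -0.82 ± 0.08). RPLP0 and RPL8 were not called, at -0.22 ± 0.13 and -0.25 ± 0.13, and both were called lower without Ujumqin library 1 (edgeR adjusted p = 0.000273 and 0.000117). Ribosomal protein genes have many processed copies in the genome, and how reads were divided among them is not given in the sources used here.

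Genes of the mitochondrial genome were lower as well, with 12 of 13 called lower, 0 higher and a median of -1.22. COX1, a subunit of cytochrome oxidase (ENSOARG00000000016; chromosome MT), had 6816, 8409.8 and 8966 FPKM in Ujumqin and 4225, 3716 and 4122 in Hulunbuir (log2 change -1.34 ± 0.14), and CYTB, of complex III, 8478, 11676 and 11462 against 5845, 5102 and 5850.1 (log2 change -1.25 ± 0.16). In both genes Ujumqin library 1 was the lowest of the Ujumqin libraries and still above Hulunbuir. ND6, the 1 protein gene on the other strand, overlapped between the breeds at 543, 873 and 799 against 896, 693 and 969 FPKM and was not called (log2 change -0.13 ± 0.201). Mitochondrial transcripts made up 4.35% to 6.36% of all counts in Ujumqin and 2.73% to 3.17% in Hulunbuir.

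Nuclear genes of the respiratory chain gave a split that turned with scaling: 29 of 57 were lower and 6 higher after TMM (median -0.23), but 11 lower and 19 higher on library totals (median 0.09). The complex I subunits NDUFB3 and NDUFA12 were lower under both scalings, NDUFB3 with 283, 294 and 314 against 191, 183 and 197 FPKM (log2 change -0.97 ± 0.09) and NDUFA12 with 123, 133 and 127 against 92.9, 96.01 and 96.9 (-0.75 ± 0.08). The succinate dehydrogenase subunits SDHC and SDHA were higher under both, with log2 changes of 0.64 ± 0.09 and 0.58 ± 0.09.

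A large gap in abundant transcripts lay in short non-coding RNAs, which the table names by RNA family only. This reading was made after the values were seen. All 7 tested entries of the family of U3 (RF00012), the small nucleolar RNA that guides cleavage of the ribosomal RNA precursor, were called lower. At least ENSOARG00000021229 and ENSOARG00000022008 of them passed the filter only through Ujumqin, which partly set their direction. The first had 13.7, 12.7 and 7.29 FPKM in Ujumqin and 0.312, 0.111 and 0 in Hulunbuir, the second 2.61, 6.40 and 3.85 against 0.444, 0 and 0. Over all 13 entries of the family, FPKM summed to 2448, 3262 and 2586 in Ujumqin and to 29.6, 42.3 and 32.5 in Hulunbuir. The counts summed to 18795, 23393 and 20285 against 279, 328 and 282. Over the tested entries the log2 changes ran from -7.20 to -4.77. The copies are near identical, and 5 of the 7 lie together on chromosome 11, between 9129252 and 9159313, so they are not separate observations. At day 16 the summed FPKM was 7.70 to 60.6 in the 6 libraries of both breeds, so that the 3 Ujumqin day 25 libraries were the ones apart. The labels do not say whether these 3 libraries were prepared as the other 9 were, so that for these RNAs breed and preparation cannot be told apart. The same 3 libraries are the Ujumqin side of every day 25 comparison here, so this limit holds for the other genes as well.

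Both tested entries of RF01848 were lower by as much, with a median log2 change of -6.49 against -6.31 for U3. The family sum was 607, 756 and 569 FPKM in Ujumqin and 8.40, 9.52 and 7.67 in Hulunbuir. Its more abundant entry (ENSOARG00000021990; chromosome 11, 9166593 to 9166809, minus strand) lies beside the U3 entries of that chromosome. RF01848 and U3 may therefore not be separate observations. U1 and U2, RNAs of the spliceosome, had 5 of 7 and 5 of 8 entries called lower and 0 higher. The RNA of the signal recognition particle (RF00017) had 3 of 4 entries called lower and 0 higher, with a median of -1.09, while its sum overlapped, with 779, 1992 and 2451 FPKM in Ujumqin and 1361, 1106 and 941 in Hulunbuir. The family RF00016 (SNORD14) had 1 of 8 entries higher and 0 lower. Over all 279 family entries tested, 60 were lower and 11 higher, with a median of -0.50, and without RF00012 and RF01848 51 of 270 were lower and 11 higher. Both shares called lower lay under the 24.3% over all genes and the 35.4% in the eighth with the shortest transcripts. The shares called higher lay under the 24.9% over all genes. The 1 unnamed entry with the highest mean of all in Ujumqin (ENSOARG00000021319; chromosome 5, 35312838 to 35312894, plus strand) is also short, and had 6179, 12881 and 22704 against 5076, 5578 and 4795 FPKM.

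**Figure D5:**
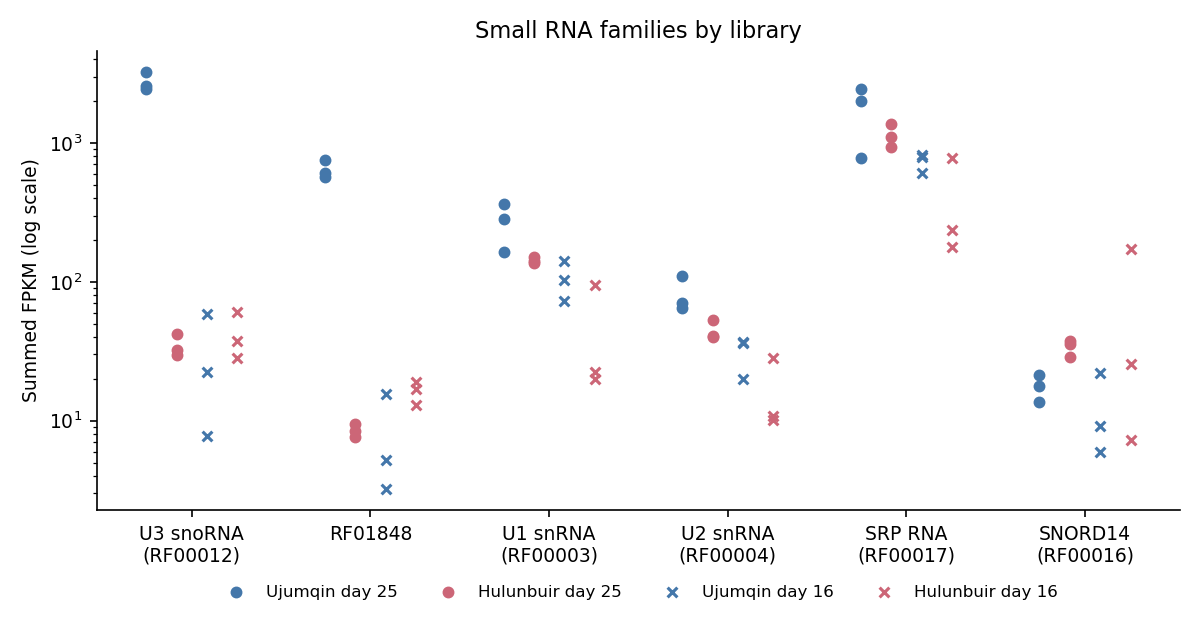
Summed deposited FPKM (log scale) of 6 RNA families in each library, circles for day 25 and crosses for day 16, Ujumqin in blue and Hulunbuir in red. For U3 and RF01848 the 3 Ujumqin day 25 libraries lie far above the other 9, whereas the signal recognition particle RNA overlaps between the breeds at day 25.

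Neural genes were more often higher than lower in Hulunbuir. Of 33 tested, 15 were called higher and 4 lower, with a median of 0.49 (17 and 4 without Ujumqin library 1; 3 and 1 in the fit of 12 libraries). GAP43, a protein of growing axons, had 18.6, 18.9 and 18.5 FPKM in Ujumqin and 65.5, 75.5 and 74.8 in Hulunbuir (log2 change 1.62 ± 0.11, edgeR adjusted p = 1.97e-05). The neurofilament genes NEFL and INA rose by 0.87 ± 0.07 and 1.06 ± 0.08. Among progenitor genes MSI1 had 10.4, 8.16 and 6.93 against 27.7, 28.8 and 28.2 FPKM (log2 change 1.41 ± 0.12), HES5, a Notch target, 23.5, 21.4 and 24.4 against 65.6, 62.5 and 66.3 (log2 change 1.16 ± 0.1005), and PAX7, of the dorsal neural tube and muscle precursors, 0.133, 0.0698 and 0.0505 against 1.21, 1.54 and 1.06 (log2 change 3.44 ± 0.45). FABP7, of radial glia, was lower (-1.17 ± 0.11), as was SNAP25 of synapses (-0.74 ± 0.09). STMN2 and DLL3, abundant in both breeds, were not called, at -0.16 ± 0.09 and 0.12 ± 0.12.

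Among 14 neural crest genes 7 were higher and 3 lower, and 0 were called in the fit of 12 libraries. SOX10, the factor of migrating crest and glia, had 6.06, 3.74 and 3.22 FPKM in Ujumqin and 12.1, 12.2 and 13.2 in Hulunbuir (log2 change 1.21 ± 0.196), and ERBB3, the neuregulin receptor of glial precursors, 2.98, 4.404 and 4.13 against 8.64, 9.71 and 9.52 (log2 change 0.94 ± 0.17). TWIST1, which the crest shares with other mesenchyme, was lower, with 204, 171 and 146 against 109, 123 and 113 FPKM (log2 change -0.92 ± 0.104).

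In the heart, contractile genes were higher or not called. Of 15 heart sarcomere and calcium genes 8 were higher and 0 lower, and of 10 heart factors 3 were higher and 4 lower. NPPA, the atrial natriuretic peptide, had 1.56, 1.71 and 1.15 FPKM in Ujumqin and 12.05, 17.7 and 13.5 in Hulunbuir (log2 change 2.96 ± 0.22), MYL3 4.88, 5.93 and 5.65 against 18.3, 18.97 and 19.3 (log2 change 1.45 ± 0.11) and CSRP3 6.98, 6.43 and 5.85 against 17.8, 17.8 and 18.3 (log2 change 1.16 ± 0.15). HAND1, a factor of heart and lateral mesoderm, was lower, with 34.9, 29.6 and 29.1 against 15.1, 17.9 and 15.1 (log2 change -1.28 ± 0.12). ACTC1 and TNNC1, abundant in both breeds, were not called, at -0.205 ± 0.13 and 0.38 ± 0.18, but TNNC1 was called with a replicate block (edgeR adjusted p = 0.0281). Without Ujumqin library 1, 8 contractile genes were higher and 4 lower.

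In skeletal muscle 6 of 11 muscle protein genes were lower and 0 higher, while 5 of 14 factors were higher and 0 lower. On library totals 4 of the protein genes were lower and 2 higher and 9 of the factors higher, and in the fit of 12 libraries 1 protein gene was lower and 1 factor higher. MYLPF, the fast light chain, had 184, 224 and 199 against 111, 112 and 110.3 FPKM (log2 change -1.19 ± 0.104), TNNT1 150.3, 210.2 and 199.7 against 85.3, 92.1 and 96.8 (log2 change -1.36 ± 0.15) and MYL1 19.96, 23.6 and 22.03 against 10.1, 13.1 and 10.6 (log2 change -1.29 ± 0.17). The factors that rose included MYF5, which commits cells to muscle (0.998 ± 0.24), and MESP2 of the forming somite (1.06 ± 0.24). DES and ACTA1 were not called, at 0.197 ± 0.11 and 0.31 ± 0.17.

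Cartilage genes were more often lower than higher. Of 18 sclerotome and cartilage genes 10 were lower and 3 higher, with a median of -0.68. COL9A2 had 42.8, 41.2 and 39.2 against 21.6, 22.7 and 20.9 FPKM (log2 change -1.24 ± 0.07, edgeR adjusted p = 1.11e-05), and CNMD, which keeps vessels out of cartilage, 14.7, 14.2 and 14.8 against 8.03, 7.02 and 7.59 (log2 change -1.28 ± 0.08). MIA, a secreted cartilage protein, had 98.99, 157 and 156 against 50.2, 42.3 and 49.1 (log2 change -1.88 ± 0.199). MATN1 and the cartilage factor SOX9 went up, by 1.15 ± 0.16 and 1.19 ± 0.28. COL2A1, the main cartilage collagen, overlapped in FPKM between the breeds, and its log2 change was -0.34 ± 0.07 after TMM and -0.02 on library totals.

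Hulunbuir Short-tail Sheep carry the short tail in their name, and the genes of the tail bud and those tied to tail length or fat tails in sheep were followed one by one. Of 28 tail bud and axis genes tested 9 were higher and 5 lower (10 and 6 without Ujumqin library 1; 1 and 2 in the fit of 12 libraries), with a median of 0.06. Of the candidates, PDGFD, a growth factor of fat and vessel precursors (ENSOARG00000003293; chromosome 15, 3848546 to 4133998, plus strand), had 7.696, 7.01 and 7.23 FPKM in Ujumqin and 4.88, 4.65 and 4.49 in Hulunbuir, without overlap (log2 change -0.97 ± 0.08, edgeR adjusted p = 5.46e-05). HOXA10 (ENSOARG00000009675; chromosome 4, 68858042 to 68863494, plus strand), which patterns the posterior trunk, had 23.99, 17.7 and 17.8 against 14.96, 14.7 and 15.1 (log2 change -0.73 ± 0.097, edgeR adjusted p = 0.0005399). Both stayed called when any 1 library was left out (highest edgeR adjusted p = 0.0008805 and 0.00452). In the fit of 12 libraries only 1 of the candidates was called lower and 0 higher. BMP2, PPP1CC and SP5 were not called, with log2 changes of -0.12 ± 0.34, 0.08 ± 0.07 and -0.11 ± 0.37. GLIS1 and NR6A1 did not pass the filter, GLIS1 at 1.37, 0.932 and 1.11 FPKM in Ujumqin and 0.346, 0.699 and 0.618 in Hulunbuir and NR6A1 at 0.399, 0.268 and 0.309 against 1.16, 0.4701 and 0.926. VRTN was not analysed here.

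The core tail bud factors TBXT, WNT3A, CDX1, CDX2, CDX4 and HOXB13 did not pass the filter at day 25 and were therefore not among the genes tested. TBXT, the notochord and streak factor, had 0.0691, 0.0905 and 0.354 FPKM in Ujumqin and 0.4096, 0.158 and 0.202 in Hulunbuir, WNT3A 0.413, 0.288 and 0.838 against 0.896, 1.09 and 1.76, CDX1 0.0171, 0.265 and 0.0812 against 0.909, 1.03 and 0.9404, CDX2 0, 0.2001 and 0.272 against 0.7902, 0 and 0.167, and HOXB13, which ends axis growth, 0, 0 and 0 against 0.302, 0 and 0.217. CDX4 had 0 counts in all 6 libraries. GDF11, which brings on the trunk-to-tail change, was higher in Hulunbuir, with 4.67, 6.39 and 5.15 against 11.2, 9.91 and 10.5 FPKM (log2 change 0.63 ± 0.18, edgeR adjusted p = 0.0192), but the call was lost with 1 library left out (highest adjusted p 0.07105). TBX6 and FGF8 were not called over 6 libraries, at -0.13 ± 0.31 and -0.56 ± 0.36. Without Ujumqin library 1, FGF8 was called lower (edgeR adjusted p = 0.00483).

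Other members with small p were GREB1, first known as a gene induced by oestrogen, with 3.26, 2.28 and 2.41 against 11.1, 11.9 and 12.4 FPKM (log2 change 1.83 ± 0.12), and WNT5B, a Wnt ligand of extending tissue, with 13.7, 9.85 and 9.65 against 4.65, 5.24 and 4.51 (log2 change -1.52 ± 0.13). LFNG, a cycling gene of the segmentation clock, rose from 1.41, 1.55 and 1.03 to 4.104, 4.16 and 4.77 FPKM (log2 change 1.38 ± 0.25), and LIN28A, which keeps axial progenitors dividing, from 1.019, 1.24 and 0.582 to 2.86, 3.27 and 3.5995 (1.41 ± 0.36).

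HOX genes had no common direction. Of 29 tested 6 were higher and 8 lower after TMM, but 11 higher and 3 lower on library totals. HOXB9 had 18.2, 12.1 and 11.6 FPKM in Ujumqin and 37.1, 37.2 and 38.5 in Hulunbuir (log2 change 1.11 ± 0.15), and HOXB4 9.12, 5.79 and 4.33 against 16.9, 15.3 and 19.3 (log2 change 1.103 ± 0.25), whereas HOXA4 had 61.3, 49.2 and 47.7 against 44.3, 38.5 and 40.6 (log2 change -0.68 ± 0.104). Limb genes gave 3 higher and 7 lower of 19 after TMM and 5 and 4 on library totals. MSX1, of the limb tip, had 34.1, 32.4 and 32.01 against 22.1, 20.1 and 21.4 FPKM (log2 change -0.95 ± 0.09), and DLX5 of the outer ridge 4.08, 5.06 and 4.47 against 2.36, 2.18 and 2.48 (log2 change -1.28 ± 0.14). SALL4, also a stem cell factor, rose from 0.954, 0.752 and 0.862 to 3.34, 2.84 and 3.23 (log2 change 1.54 ± 0.17). In the intermediate mesoderm, the source of the kidney, 6 of 13 were higher and 3 lower. CDH16, a cadherin of kidney tubules, rose from 6.58, 7.95 and 7.496 to 22.5, 24.7 and 24.7 FPKM (log2 change 1.38 ± 0.12) and LRP2, an uptake receptor of tubule cells, by 1.01 ± 0.11, while SIX2, of the nephron progenitors and of other mesenchyme, fell (-1.19 ± 0.07).

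Growth factor pathways were mixed. Of 17 IGF and imprinted growth genes 9 were higher and 5 lower. NNAT, an imprinted gene expressed from the paternal copy, had 259.96, 228 and 216 FPKM in Ujumqin and 942, 966 and 929 in Hulunbuir (log2 change 1.69 ± 0.07, edgeR adjusted p = 2.77e-06), and IGFBP1, a liver binding protein of IGFs, 20.8, 11.5 and 7.92 against 96.4, 97.2 and 99.2 (log2 change 2.55 ± 0.27). PEG10 and PLAGL1 rose by 0.86 ± 0.08 and 1.55 ± 0.22. IGF2, the main fetal growth factor, was lower after TMM but not called on library totals, with 344, 301 and 305 against 279.9, 244 and 297 FPKM (log2 change -0.54 ± 0.09), and MEST likewise (-0.74 ± 0.07). DLK1 was not called (-0.76 ± 0.37).

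Of 18 retinoic acid genes 5 were lower and 2 higher after TMM and 4 and 5 on library totals. The binding proteins and the enzyme parted: CRABP2 had 2320.03, 2288 and 2065 against 1214, 1294 and 1241 FPKM (log2 change -1.16 ± 0.08) and CRABP1 1455, 1681 and 1556 against 946, 1069 and 959 (log2 change -0.99 ± 0.105), while ALDH1A2, which makes retinoic acid, rose from 9.56, 5.98 and 6.61 to 21.8, 18.9 and 19.4 (log2 change 1.12 ± 0.15). With RBP4 these 2 binding proteins were lower under both scalings.

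Wnt genes numbered 9 higher and 7 lower of 39 after TMM (17 and 3 on library totals), BMP and TGF-beta genes 3 and 9 of 32 (10 and 5), and FGF genes 7 and 1 of 22 (12 and 0). INHBA, the activin subunit, fell from 6.13, 6.76 and 5.81 to 2.74, 2.999 and 2.78 FPKM (log2 change -1.46 ± 0.16), and its inhibitor FST (follistatin) rose from 7.66, 8.203 and 6.06 to 17.2, 20.6 and 22.4 (log2 change 1.13 ± 0.16). BMP4 was lower after TMM (-0.59 ± 0.08). FGFR3 and the FGF feedback gene DUSP6 rose by 0.94 ± 0.13 and 0.76 ± 0.11, and FGFR1 was not called (0.06 ± 0.09).

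Epithelial genes depended on a single library. Over 6 libraries 3 of 13 were called lower and 0 higher, and without Ujumqin library 1 11 were lower and 0 higher. The summed FPKM was 84.1 in Ujumqin library 1 and 227.3 and 240.9 in the others, with Hulunbuir between them at 148.5 to 157.5. EPCAM, the cell adhesion molecule of epithelia, had 10.3, 42.6 and 44.4 FPKM in Ujumqin and 26.4, 23.9 and 27.9 in Hulunbuir, and was not called (log2 change -0.67 ± 0.46) but was without that library (edgeR adjusted p = 1.06e-05). KRT15 and KRT5, keratins of basal skin cells, were called at -1.12 ± 0.25 and -1.56 ± 0.48. KRT5 and ESRP1, a splicing regulator of epithelia (-1.32 ± 0.42), lost the call with 1 library left out (highest edgeR adjusted p = 0.08704 and 0.111) and were not called on library totals, and ESRP1 was not called with a replicate block (edgeR adjusted p = 0.0687).

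Markers of extraembryonic and maternal tissue were checked in the same way. Of 16 trophoblast and placenta genes 7 were lower and 0 higher (9 and 1 without Ujumqin library 1). SLC2A3, a glucose transporter, had 230.4, 208 and 207 against 129.8, 119 and 128 FPKM (log2 change -1.1001 ± 0.07), and KRT7 8.01, 36.3 and 35.9 against 8.55, 10.1 and 10.6, with Ujumqin library 1 beside Hulunbuir (log2 change -1.81 ± 0.49, edgeR adjusted p = 0.0152, at most 0.0561 with 1 library left out). Of 9 endometrium genes 3 were higher and 5 lower, and 3 of the list had 0 counts in all 6 libraries. SPP1 had 36.1, 51.6 and 48.9 against 28.2, 28.5 and 30.6 FPKM (log2 change -0.98 ± 0.16), and FXYD4 had 0 counts in Ujumqin and 3.62, 4.66 and 3.57 FPKM in Hulunbuir.

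Of 31 cell cycle genes 13 were higher and 1 lower, none by 2-fold (0 genes), and 25 were higher and 0 lower on library totals. The replication licensing gene MCM5 had 59.2, 62.4 and 59.3 against 131, 142 and 137 FPKM (log2 change 0.85 ± 0.08). Glycolysis and hypoxia genes split 8 higher and 7 lower of 27 (10 and 3 on library totals). SLC2A1, the glucose transporter of red cells and embryonic tissue, rose from 57.3, 55.3 and 50.6 to 164, 167 and 163 FPKM (log2 change 1.27 ± 0.07), while ADM, a vessel-widening peptide induced by low oxygen, fell from 6.05, 5.22 and 5.47 to 1.65, 1.68 and 1.44 (log2 change -2.13 ± 0.13). Antigen presentation and interferon genes split 7 and 6 of 20, with IFI6 lower (-1.15 ± 0.11) and PSMB9 higher (1.13 ± 0.18).

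The remaining large differences were single genes. MT2A, a metallothionein that binds zinc and copper (ENSOARG00000018343; chromosome 14, 23525089 to 23525821, minus strand), had 155, 108 and 90.2 FPKM in Ujumqin and 2393, 2442 and 2425 in Hulunbuir (log2 change 4.04 ± 0.16, edgeR adjusted p = 1.72e-06). The neighbouring metallothionein-1A (ENSOARG00000018341; chromosome 14, 23505870 to 23518073, minus strand, picked after its values were seen) had 468, 222 and 201 against 3906, 4495 and 4121 FPKM (log2 change 3.51 ± 0.28). The metallothionein copies are near identical and could share reads. CARNS1, which makes carnosine, rose from 1.09, 0.856 and 0.725 to 14.5, 17.1 and 14.2 FPKM (log2 change 3.77 ± 0.16) and TM4SF5 from 3.33, 2.49 and 2.05 to 34.3, 38.2 and 35.2 (log2 change 3.44 ± 0.18). GCG, which encodes glucagon and the gut peptide GLP-1, had 0, 0 and 0.08398 against 5.39, 5.97 and 5.91 FPKM, and its log2 change of 7.23 ± 0.59 rests on Ujumqin values near 0.

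One gene without a symbol was present in 1 breed only at this age. ENSOARG00000000407, described as cationic amino acid transporter 3-like (chromosome 14, 58266792 to 58271596, minus strand), had 0 counts in the 3 Ujumqin libraries and 2138 to 2390 counts (27.6, 30.3 and 30.2 FPKM) in the Hulunbuir libraries, at least 645-fold higher against a floor of 3 counts per library. This gene passed the filter only through the Hulunbuir libraries. It was not restricted to Hulunbuir at day 16, where its FPKM was 3.18, 0.3398 and 22.3 in Ujumqin and 0.0698, 0.927 and 0.854 in Hulunbuir.

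The following genes were picked after their values were seen. An olfactory receptor gene (ENSOARG00000007325, described as olfactory receptor 51M1-like; chromosome 15, 47380414 to 47381376, minus strand), on the chromosome that carries the beta-type globin genes, had 7.85, 6.18 and 6.31 FPKM in Ujumqin and 139, 138 and 138 in Hulunbuir (log2 change 4.02 ± 0.09). NPY, the neuropeptide of sympathetic and brain neurons, went the other way, with 42.05, 40.2 and 35.9 against 7.45, 8.71 and 8.06 FPKM (log2 change -2.5996 ± 0.17), and MGP, which prevents calcification of matrix, fell to -2.51 ± 0.21. Lens crystallins did not move together: CRYAB had 63.2, 56.9 and 56.5 against 19.2, 22.1 and 20.4 FPKM (log2 change -1.84 ± 0.101), CRYAA 4.71, 8.74 and 9.54 against 1.92, 1.76 and 0.979 (log2 change -2.63 ± 0.39) and CRYBB3 25.7, 28.2 and 32.2 against 4.07, 4.78 and 3.41 (log2 change -3.14 ± 0.19), whereas CRYBA4, one of the 12 largest rises chosen as above, had 1.36, 0.274 and 0.107 against 5.98, 8.25 and 6.42 (log2 change 3.23 ± 0.62). An unnamed short entry (ENSOARG00000008077; chromosome 2, 37106381 to 37106638, plus strand) fell from 689, 1611 and 1427 to 10.2, 13.7 and 9.56 FPKM.

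The day 25 difference was compared with that at day 16 by an interaction term over all 12 libraries. It was called for 2804 of 14595 genes (19.2%), and 2170 of these were also called at day 25 in the 6 libraries. The term carries the larger spread of day 16. For HBZ the day 25 minus day 16 difference of the breed effects was 6.79 ± 0.75 on the log2 scale (edgeR adjusted p = 0.000556), with 866, 706 and 3283 FPKM in Ujumqin and 54.8, 117 and 89.5 in Hulunbuir at day 16, the reverse order of day 25. Other genes differed the same way at both ages: KLF4 had 10.8, 8.29 and 9.91 FPKM in Ujumqin and 0.436, 0.859 and 0.804 in Hulunbuir at day 16, beside 11.2, 5.73 and 7.02 against 1.53, 1.23 and 1.52 at day 25. SLC22A7, an organic anion transporter of liver and kidney (picked after its values were seen), had 0, 0.0834 and 0.0418 and 0.513, 0.356 and 0.278 FPKM at day 16 and 0.2605, 0.158 and 0.186 against 3.28, 2.86 and 2.88 at day 25.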

How the data were processed

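RNA-seq of dissociated whole sheep embryos was analysed for 2 breeds at day 25, with 3 libraries of each. Reads were trimmed with cutadapt 1.9, per the submitters' processing notes, which also name FastQC and the Oar_v3.1 build. Neither the aligner nor the counting tool, nor its use of strand, is given in the sources used here. The authors deposited estimated counts per gene, rounded up to whole numbers, and per the file headers FPKM from the same values, in which a count of 0 stands as 0.0001 (read here as 0). In 299 of 300 values of 1 to 20 counts checked, the estimate behind the FPKM lay between the count less 1 and the count (tolerance 0.05). Total counts per library were 30464606 to 39643588, and a count of 0 allows at most 3 counts of the total, for counting error only.

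The counts were tested with edgeR 4.0.16 (R 4.3.3; quasi-likelihood, TMM scaling, Benjamini-Hochberg adjustment over 13682 genes) on the 6 libraries. The interaction with age used all 12. On simulated counts of 13682 genes with 200 changed, the fit recovered 76% of 2-fold and 99% of 4-fold changes, with 9 false calls among 184. In the simulation all genes shared the same spread within a breed, no library stood apart, and rises and falls were balanced, unlike in the embryos. A case with as many genes changed as the 6728 called in the embryos was not tested. The share of false calls among the 6728 is therefore not known. Alternatives were DESeq2 1.42.0, limma 3.58.1 on log2(FPKM + 1) and log2(FPKM + 0.1), other scalings, filters and gene length, a replicate block, and each library left out. Same-numbered samples of the breeds were not treated as paired, since the labels give no pairing. Their deviations correlated weakly, by 0.019 to 0.059, though each sample correlated best with its own number.

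Members and gene lists (998 symbols, 757 tested) were chosen with earlier results of these data known. Named genes were the 12 largest rises and 12 largest falls among called genes with a symbol, 5 FPKM or more on average in the higher breed and no overlap; called list members in order of adjusted p; up to 3 abundant uncalled members per list; all tail candidates; the most abundant genes; and genes at 3 counts or fewer in 1 breed. Entries named by RNA family were not taken as symbols, a choice made after values were seen. List members named out of order, mostly exceptions to a list's direction, were also picked after values were seen. Of 26247 genes, 14418 had a symbol in the table and 1300 more were named from RefSeq. Sequences were not analysed here. Some genes that these rules would name are not reported here.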

Additional observations from a re-analysis of the deposited data

Results flagged for a closer look

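The breed difference at day 25 departed from that at day 16 in 11 of 23 genes with the largest day 25 changes among called genes with a symbol, 5 FPKM or more and no overlap, by the interaction term over 12 libraries (day 25 minus day 16 of the breed difference, on the log2 scale, with edgeR's adjusted p). The term carries the larger spread of the day 16 libraries.

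In 10 of the 11 the fitted order of the breeds was opposite at day 16, with the fitted level higher in Ujumqin there. The day 16 difference itself was not called for GCG, MT2A, CPB2 and FOXA3 (edgeR adjusted p = 0.0996, 0.150, 0.270 and 0.619). For the red cell genes KLF1, a globin activator, and TRIM58, which acts as red cells lose their nuclei, the term was 7.19 (adjusted p = 0.001204) and 6.68 (adjusted p = 0.00209), with day 16 log2 changes of -3.78 and -3.16. CARNS1 had 6.92 (adjusted p = 0.000234), TM4SF5 6.53 (adjusted p = 0.00464) and GJB1 5.51 (adjusted p = 0.000756). For MT2A it was 5.68 (adjusted p = 0.00759), with 74.5, 70.6 and 776 FPKM in Ujumqin and 102, 128 and 47.4 in Hulunbuir at day 16, where 1 Ujumqin library set the order. Among liver genes, CPS1 had 4.96 (adjusted p = 0.000642), CPB2 3.95 (adjusted p = 0.00115) and the hepatocyte factor FOXA3 3.65 (adjusted p = 0.0193), and the day 16 log2 changes of the last 2 were small, at -0.58 and -0.47. GCG had 12.59 (adjusted p = 0.006001), which rests on values near 0.

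IER3 had the same order at both ages and was further apart at day 25, with a term of -2.47 (adjusted p = 0.00451) and a day 16 log2 change of -0.36.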

How the results depend on the processing

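All 6728 calls rest on 3 libraries a side. DESeq2, upper quartile scaling, a length offset, no filter, and a filter at 5 FPKM kept the counts within 1.5 times. With the 12-library fit 2440 genes were called, 1150 higher and 1290 lower. The split turned toward Hulunbuir with other scalings: library totals gave 5986 higher and 1498 lower, limma on log2(FPKM + 1) 6114 and 1499, limma on log2(FPKM + 0.1) 6019 and 1488, and totals without mitochondrial-genome and ribosomal protein genes, added after seeing the data, 5062 and 2056. Without 1 library each, the calls ran from 5046 (without Hulunbuir library 1) to 8065 (without Ujumqin library 1), with 2508 to 4145 higher and 2538 to 3920 lower, and 4543 genes kept their call and direction in all 6 of these fits. With the replicate number as a replicate block 6562 genes were called, 3339 higher and 3223 lower. Its only changes to named genes are given beside ESRP1 and TNNC1. The numbers pair no samples by the labels. Each sample correlated best with its own number, but weakly. The causes were not tested.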

Other observations

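A few further genes without a symbol, picked after their values were seen, differed by over 2 log2 units. A UDP-glucuronosyltransferase 3A1-like gene (ENSOARG00000011108; chromosome 16, 38109886 to 38131379, plus strand), of a family that joins sugars to small molecules, had 0.201, 0.394 and 0.1699 FPKM in Ujumqin and 7.18, 8.34 and 8.95 in Hulunbuir (log2 change 4.64 ± 0.303). C-C motif chemokine 4 (ENSOARG00000004253), which draws in macrophages, went the other way, with 3.98, 8.29 and 5.896 and 0.701, 0.888 and 0.339 FPKM (log2 change -3.495 ± 0.49), as did CXCL8. Both chemokines were thus lower in Hulunbuir while 7 of the 8 leukocyte genes called were higher.

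The median log2 change per nuclear chromosome ran from -0.09 to 0.13, against -0.89 for the mitochondrial genome.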
